A study of Mus musculus with 16 samples.

Results

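Macrophage genes of the bowel were followed through RNA sequencing of mouse terminal ileum, the last stretch of the small intestine. The set held 10 genes of the 23299 in the table: Adgre1, Csf1r, Cd68, Itgax, C1qa, C1qb, C1qc, Lyz2, Cd163 and Mrc1. Each was found by its transcript names, and the values of its transcripts were added. All 10 passed the filter on low values that 19042 genes passed (at least 1 RPKM, a read count per transcript length and library size, in at least 2 libraries).

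Tas1r3+/+ mice and mice with a germline deletion of Tas1r3 (Tas1r3-/-), a subunit of the sweet and umami taste receptors, were compared on a C57BL/6 background. Either genotype received a normal diet (ND) with plain water or a Western diet (WD) made of 60% fat pellets and 30% sucrose water, for 10 weeks. The Tas1r3+/+ mice were littermates, and the deletion was present in every cell type. The labels give 4 mice per group, 2 male and 2 female, but the 2 columns of Tas1r3-/- ND females were weighted means of the 2 males of that group and were left out. The 2 columns of Tas1r3-/- WD females were averaged into 1 library, because the second showed signs of having been averaged with the first. This left 13 libraries: 4 Tas1r3+/+ ND, 2 Tas1r3-/- ND (both male), 4 Tas1r3+/+ WD and 3 Tas1r3-/- WD. The depth implied by the steps between low values ran from 7003280 to 12384991 reads per library. Tas1r3 itself was between 1.58 and 6.54 scaled RPKM in the 8 Tas1r3+/+ libraries and at most 0.00518 in the 5 Tas1r3-/- libraries.

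Macrophages of the gut wall are replaced largely from blood monocytes and depend on signalling through CSF1R. They clear dead cells and bacteria, and in the healthy bowel they take up microbes with little release of inflammatory cytokines. Tnf and Il1b, which encode cytokines that macrophages can release, are also made by other leukocytes. The paper also reports mRNA of both in a cultured human enteroendocrine cell line. In whole tissue, fewer macrophages and less RNA per macrophage cannot be told apart.

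RPKM is per transcript length, so that levels can be set side by side between genes. Levels are given as RPKM after scaling of the libraries to a common level (scaled RPKM), and changes as log2 differences of scaled RPKM plus 0.5. The most abundant of the 10 genes was Lyz2, lysozyme 2, with a mean of 222 ± 77.7 scaled RPKM (SD, n = 13). The chains of C1q, the complement component that opens the classical pathway, followed at 52.1 ± 15.1 for C1qb, 47.7 ± 15.2 for C1qa and 37.7 ± 11.6 for C1qc, and neighbours among these chains were closer together than their spread. Csf1r, the receptor for CSF1 and IL34, stood at 7.08 ± 2.24, Cd68, a lysosomal glycoprotein, at 5.72 ± 1.81 and Itgax, the CD11c integrin chain shared with dendritic cells, at 4.09 ± 1.62. Mrc1, the mannose receptor CD206, stood at 2.74 ± 1.27, Adgre1, which encodes F4/80, at 1.62 ± 0.721 and Cd163, the haemoglobin scavenger receptor, at 1.11 ± 0.575. Each step in this order from Csf1r down to Cd163 was likewise smaller than the SD of the higher gene. The spread between libraries was wide, from a coefficient of variation of 28.9% for C1qb to 51.7% for Cd163. The implied reads behind these levels ran from 10 to 72 per library for Cd163 and from 13 to 105 for Adgre1, against 255 to 1084 for C1qb and 1868 to 5073 for Lyz2, with the female 1 column standing for the averaged library.

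**Figure D1:**
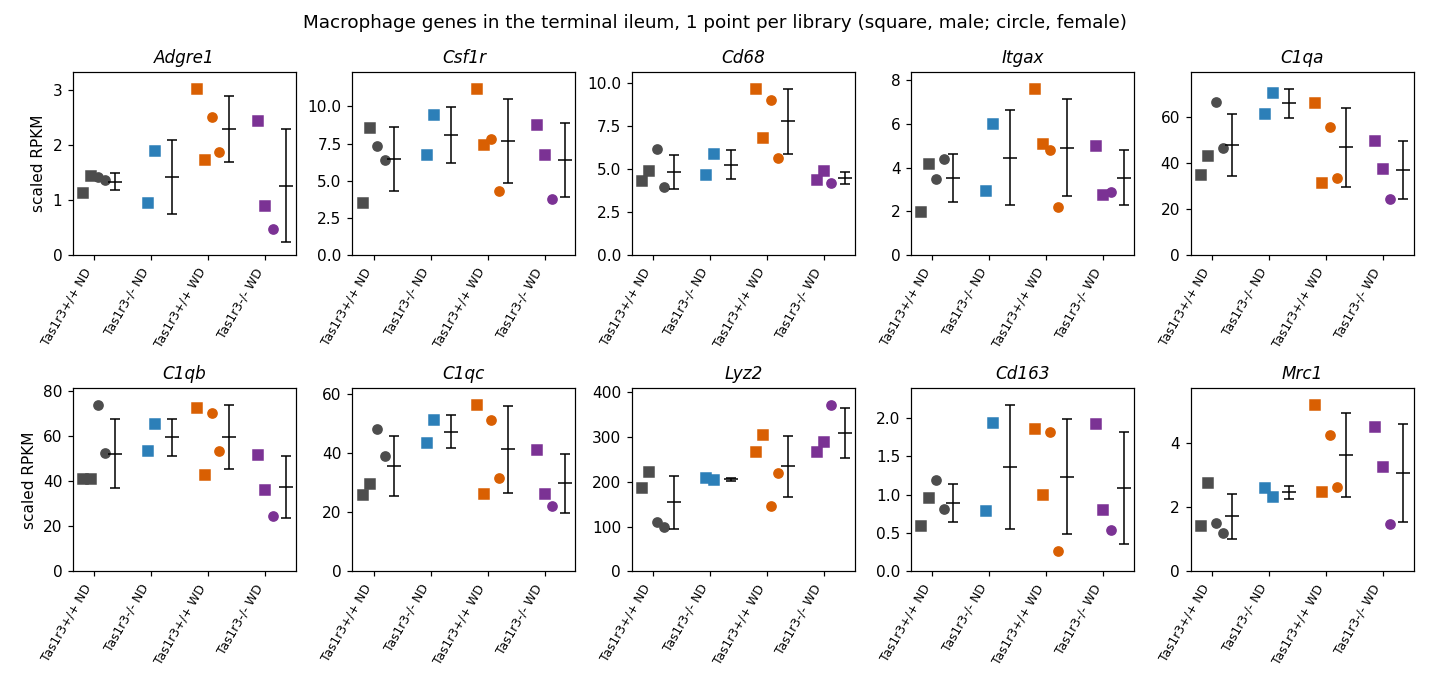
Scaled RPKM of each of the 10 macrophage genes, 1 point per library (squares, males; circles, females), with the mean and SD of each group to the right of its points. Cd68 is the gene whose 3 Tas1r3-/- WD libraries (4.21 to 4.90) all lie below the 4 Tas1r3+/+ WD libraries (5.64 to 9.67), and Lyz2 is the gene whose Tas1r3-/- WD libraries reach the highest level, 371. That level is the averaged female, whose female 1 column holds a Lyz2 value with more significant digits than most values have.

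The C1q chains lie side by side on chromosome 4 and are shown first because their levels moved together. On GRCm38, C1qb occupies chr4:136880129-136886187, C1qc chr4:136889804-136893065 and C1qa chr4:136895917-136898803, all on the minus strand. The 250 bases before the RefSeq start of C1qb and C1qc, which for C1qc lies inside the GENCODE gene (RefSeq, GRCm38.p6, chr4:136886201-136886450 and chr4:136892915-136893164, minus strand) are given 5′ to 3′. Capitals mark GAGGAA on either strand, the core of the binding motif of PU.1, the myeloid regulator encoded by Spi1.
C1qb: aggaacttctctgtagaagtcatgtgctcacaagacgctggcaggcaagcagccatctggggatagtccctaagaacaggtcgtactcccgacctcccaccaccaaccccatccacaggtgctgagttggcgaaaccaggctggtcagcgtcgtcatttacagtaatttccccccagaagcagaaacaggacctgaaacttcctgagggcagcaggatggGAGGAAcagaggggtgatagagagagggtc
C1qc: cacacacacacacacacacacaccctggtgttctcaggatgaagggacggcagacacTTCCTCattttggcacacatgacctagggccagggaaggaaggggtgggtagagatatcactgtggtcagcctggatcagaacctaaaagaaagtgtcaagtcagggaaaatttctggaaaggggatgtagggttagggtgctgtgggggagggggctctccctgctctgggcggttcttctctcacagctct
The motif was present in 4 of the 7 macrophage genes with a promoter in the table and in 23.1% of all 27025 promoters, and a match of these letters is not a measured site.

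Lyz2 shares most of its coding sequence with Lyz1, the lysozyme of Paneth cells, which lies beside it at chr10:117287797-117292868 (Lyz2, chr10:117277331-117282321, GRCm38, both on the minus strand). The coding sequences are 447 bases each, differ at 22 bases (95.1% identity) and are identical over runs of up to 118 bases. Bases 1 to 120 of the coding sequences (GENCODE M21) are shown 5′ to 3′, with the differing bases in capitals.
Lyz1: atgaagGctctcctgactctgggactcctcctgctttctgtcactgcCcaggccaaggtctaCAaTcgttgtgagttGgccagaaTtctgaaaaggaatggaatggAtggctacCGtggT
Lyz2: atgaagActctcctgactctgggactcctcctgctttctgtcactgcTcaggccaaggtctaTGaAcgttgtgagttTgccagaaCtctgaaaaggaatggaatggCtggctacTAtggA
Lyz2 was 3.33% to 23.1% of the level of Lyz1 in the same library, and how reads shared by the copies were divided between them was not tested, so that its value is uncertain.

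The first question was whether macrophage genes differ between genotypes on the WD. The threshold took its cutoffs from the paper: at least a 2-fold change, with an adjusted p below 0.01. The test was limma with Benjamini-Hochberg adjustment, whereas the paper used DESeq2, so numbers of genes passing cannot be compared with the paper's. None of the 10 passed this threshold, which 2 of 19042 genes did (0.0105%). The level was lower with Tas1r3 deleted in 9 of the 10, against 52.3% of all genes, and the median log2 change of the 10 was -0.34, against -0.01 over all genes. An unadjusted p under 0.05, which 2.56% of all genes had, was reached by 3 of the 10, Cd68, C1qb and Adgre1, all with the lower level in Tas1r3-/- mice, a direction that 0.945% of all genes had at that p. The adjusted p was 1 for each of the 10, by limma.

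Cd68 was 9.67, 6.79, 8.98 and 5.64 scaled RPKM in the Tas1r3+/+ WD libraries (male 1, male 2, female 1 and female 2) and 4.36, 4.90 and 4.21 in the Tas1r3-/- WD libraries (male 1, male 2 and the averaged female). The groups did not overlap, and 1.26% of all genes had a Tas1r3-/- WD group wholly below the Tas1r3+/+ WD group. The log2 change was -0.70 (95% interval -1.18 to -0.23, limma unadjusted p = 0.00733), and the exact two-sided permutation p was 0.057 where 0.029 is the smallest that 4 against 3 libraries allow. Cd68 was the 1 gene of the set whose unadjusted p stayed under 0.05 when any single library was left out.

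Adgre1 was 3.02, 1.73, 2.5 and 1.87 scaled RPKM in Tas1r3+/+ WD libraries and 2.43, 0.888 and 0.470 in Tas1r3-/- WD libraries. The Tas1r3-/- males thus differed 2.43 to 0.888, and male 1 lay among the Tas1r3+/+ values. The log2 change was -0.79 (95% interval -1.54 to -0.04), with an exact permutation p of 0.11. C1qb was 72.5, 42.5, 69.9 and 53.2 in Tas1r3+/+ WD libraries and 51.7, 36.2 and 24.5 in Tas1r3-/- WD libraries, and the groups overlapped. Its log2 change was -0.69 (-1.32 to -0.06), beside -0.32 (-1.0 to 0.37) for C1qa and -0.44 (-1.12 to 0.23) for C1qc.

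The changes of the other genes had intervals that spanned 0. They were -0.24 (-1.03 to 0.54) for Csf1r, -0.36 (-1.19 to 0.48) for Itgax, -0.26 (-1.02 to 0.50) for Mrc1 and -0.09 (-1.01 to 0.83) for Cd163. A p that misses the threshold in these genes does not show that the genotypes were alike. Lyz2 was higher in Tas1r3-/- mice by 0.44 (-0.25 to 1.13), while its near copy Lyz1 was higher by 1.91 (0.74 to 3.07, adjusted p = 1 by limma) and 9 of 9 Paneth cell genes were higher, 7 of them without overlap of the groups (1.55% of all genes), with the largest rise in Defa26, a defensin (2.20, adjusted p = 0.568 by limma). Their part in the value of Lyz2 was not tested.

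The averaged Tas1r3-/- WD female weighed on this comparison, since it held the lowest level of Adgre1, C1qa, C1qb and C1qc among all 13 libraries. Without it, 6 of the 10 genes were lower in Tas1r3-/- mice, the median log2 change was -0.15 and Cd68 alone had an unadjusted p under 0.05 (log2 change -0.66). Cd68 alone likewise remained without Tas1r3+/+ WD male 1 (median -0.13), Tas1r3+/+ WD female 1 or Tas1r3-/- WD male 2, and Adgre1 dropped out without Tas1r3+/+ ND female 2. Without Tas1r3-/- WD male 1 the median was -0.57.

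**Figure D2:**
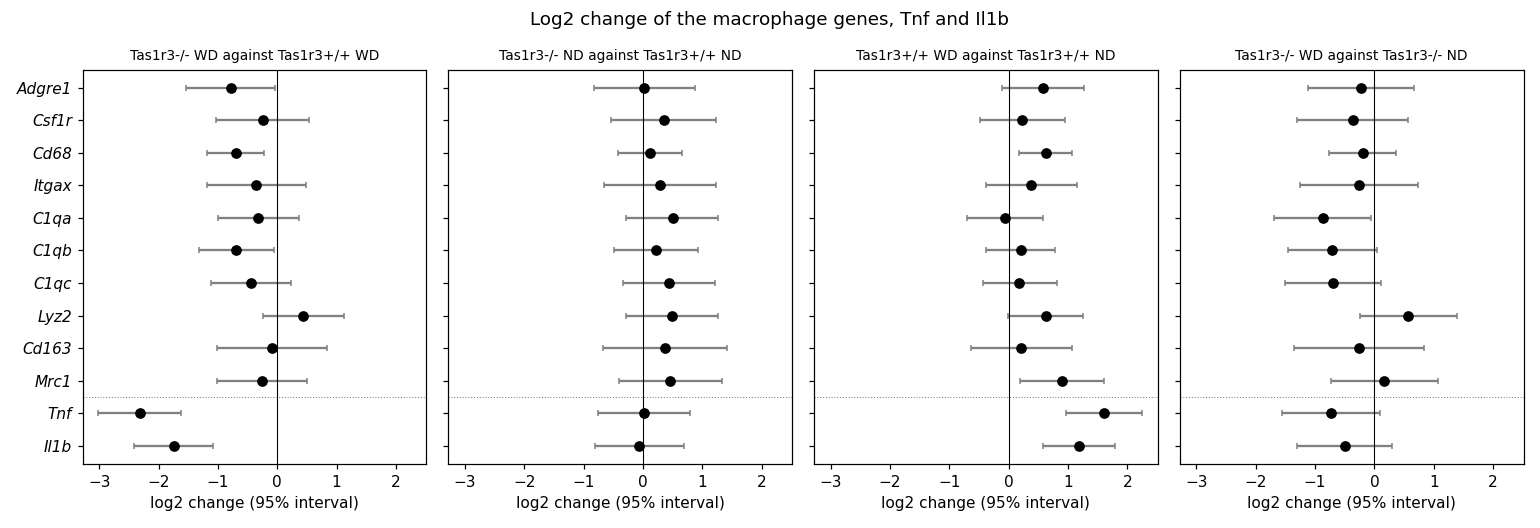
Log2 change of the 10 macrophage genes and, below the dotted line, Tnf and Il1b in each comparison, as points with 95% intervals from limma. On the WD, Tnf (-2.32) and Il1b (-1.75) lie well beyond the range of the macrophage genes (-0.79 to 0.44).

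The same genotypes were compared on the ND, where only the 2 Tas1r3-/- males were available. None of the 10 passed the threshold, and 0% of all genes did. No member had an unadjusted p under 0.05, which 4.56% of all genes had. Every one of the 10 was higher in Tas1r3-/- mice, by 0.02 (Adgre1) to 0.50 (C1qa) on the log2 scale, against 50.7% of all genes. The Tas1r3+/+ ND group holds both sexes, so genotype and sex are partly confounded here. With sex as a term 9 of the 10 were higher, and in males alone all 10 were. C1qa was 34.9, 42.9, 66.5 and 46.3 scaled RPKM in Tas1r3+/+ ND libraries and 61.3 and 70.3 in Tas1r3-/- ND libraries, so that the groups overlapped through Tas1r3+/+ female 1. No gene of the set had groups without overlap, which 8.34% of all genes had with the higher and 13.6% with the lower level in Tas1r3-/- mice, and with 4 against 2 libraries the smallest exact permutation p is 0.067. Without Tas1r3-/- ND male 2, the level of 4 of the 10 was lower in Tas1r3-/- mice (median 0.10 over the 10), and Adgre1 differed between these males, at 0.937 and 1.89.

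The response to the WD was read first in Tas1r3+/+ mice. None of the 10 passed the threshold, which 1 gene of 19042 did (0.00525%). Cd68 and Mrc1 had an unadjusted p under 0.05, as did 15.6% of all genes (6.42% with the higher level on the WD), with log2 changes of 0.63 (0.18 to 1.07, adjusted p = 0.184 by limma) and 0.89 (0.19 to 1.60, adjusted p = 0.23). The median change of the 10 was 0.30, against 0.00 over all genes, and 9 of 10 were higher on the WD, against 50.3% of all genes. This comparison shares the Tas1r3+/+ WD libraries with the one between genotypes. Without Tas1r3+/+ WD male 1, Cd68 alone had an unadjusted p under 0.05 and the median was 0.12. As deposited, summed RPKM ran from 817011 to 819916 in ND libraries and from 542371 to 685274 in WD libraries, with female 1 standing for the averaged library. Totals thus differed with diet, and comparisons between diets depend on the scaling. Without scaling, all genes together shifted by -0.38 in this comparison and 5 of the 10 were higher, with Csf1r, C1qb, C1qc and Cd163 turning to the lower side and no unadjusted p under 0.05, that of Cd68 and Mrc1 included.

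Mrc1 was 1.42, 2.76, 1.5 and 1.20 scaled RPKM in Tas1r3+/+ ND libraries and 5.20, 2.47, 4.26 and 2.63 in Tas1r3+/+ WD libraries. The groups overlapped through ND male 2. Adgre1 was 1.12, 1.43, 1.42 and 1.37 on the ND and did not overlap with its WD levels, as in 3.82% of all genes with the higher level on the WD, and its log2 change was 0.58 (-0.11 to 1.27, exact permutation p = 0.029). The C1q chains were closer to their ND levels, with changes of -0.06 for C1qa, 0.20 for C1qb and 0.18 for C1qc, all with intervals across 0.

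In Tas1r3-/- mice the C1q chains were lower on the WD than on the ND. Both ND libraries were male and the WD group includes the averaged female, so diet and sex are partly confounded here. None of the 10 passed the threshold (0% of all genes). C1qa alone had an unadjusted p under 0.05 (5.34% of all genes, 2.84% with the lower level on the WD). C1qa lost it in males alone, with sex as a term, with a replicate block and with upper quartile scaling. With sex as a term, Lyz2 alone had it, at the higher level on the WD. In 8 of the 10 the level was lower on the WD, against 50.6% of all genes, with a median of -0.26. C1qa was 61.3 and 70.3 scaled RPKM on the ND and 49.4, 37.2 and 24.4 on the WD, C1qb was 53.4 and 65.2 against 51.7, 36.2 and 24.5, and C1qc was 43.2 and 51.1 against 40.9, 26.2 and 22.0. None of the 3 chains overlapped, as in 10.4% of all genes with the lower level on the WD. The chains varied together within groups, so they are not 3 separate observations. Their log2 changes were -0.87 (-1.69 to -0.06, adjusted p = 0.926 by limma), -0.71 (-1.46 to 0.04) and -0.70 (-1.51 to 0.11). Lyz2 went the other way without overlap, as in 10.4% of all genes with the higher level on the WD, from 208 and 203 to 265, 289 and 371, a log2 change of 0.57 (-0.25 to 1.40). No gene of the set had an unadjusted p under 0.05 without Tas1r3-/- ND male 1, ND male 2, WD male 2 or the averaged WD female. The median was -0.65 without ND male 1, -0.61 without WD male 1, -0.10 without the averaged WD female and 0.03 without ND male 2.

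The difference between the genotype effects on the WD and on the ND was negative for all 10 genes, against 49.6% of all genes. It passed the threshold for none of them or of all genes (0%), and an unadjusted p under 0.05 was reached by Cd68 (-0.82, -1.55 to -0.10) and by 1.42% of all genes (0.704% with a negative difference). Cd68 lost it without Tas1r3+/+ ND female 2, Tas1r3-/- ND male 2, Tas1r3+/+ WD male 1 or Tas1r3+/+ WD female 1, and also without scaling (-0.78) and from the largest transcript (-0.33). The adjusted p was 1 for each of the 10, by limma. The 2 genotype comparisons share no library, but the interaction rests on the 2 Tas1r3-/- ND males and is thus partly confounded with sex. With sex as a term the difference was negative for 9 of the 10, and in males alone for all 10.

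Within the groups, the macrophage genes varied together, apart from Lyz2. After each group's mean was subtracted, Pearson's r over the 13 libraries was positive in all 36 pairs of the other 9 genes (0.40 to 0.96, median 0.71). The closest pairs were the C1q chains, at 0.96 for C1qa with C1qc, 0.95 for C1qb with C1qc and 0.94 for C1qa with C1qb. Csf1r and Itgax reached 0.87, and Itgax and Cd163 0.86. Lyz2 correlated negatively with each of the other 9 (-0.68 to -0.01). These are descriptions over libraries that share depth and tissue makeup.

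**Figure D3:**
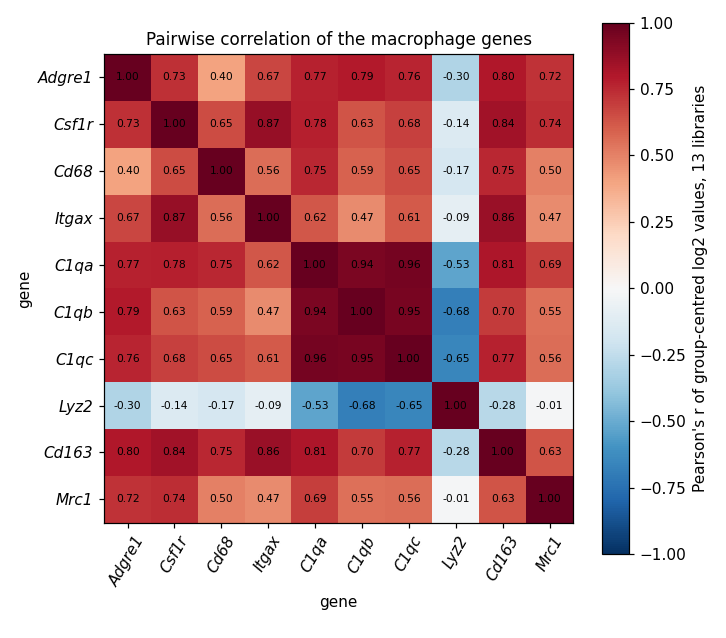
Pearson's r between the log2 levels of each pair of macrophage genes over 13 libraries, with each group's mean subtracted. The C1q chains form the closest block (0.94 to 0.96), and the row of Lyz2 runs from -0.68 to -0.01.

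At the upper end stood Tas1r3+/+ WD male 1, with the highest level of 6 of the 10 genes. At the lower end stood the averaged Tas1r3-/- WD female, among the lowest 3 libraries for 8 genes, and Tas1r3+/+ ND male 1, for 7. Females, in a fit with sex as a term, had the lower level in 8 of the 10 genes, none past the threshold (0.0368% of all genes). Lyz2 had an unadjusted p under 0.05 (-0.50, adjusted p = 0.24 by limma), as did 18.8% of all genes.

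The mean level of the macrophage genes was set against lists of other cell types. Its group-centred r was 0.90 with endothelial and lymphatic genes, 0.72 with smooth muscle genes and -0.81 with enterocyte genes. It was 0.89 with the macrophage receptor list, 0.71 with dendritic cell genes, 0.34 with pan-leukocyte genes and -0.17 with T cell genes. The part of tissue makeup in the differences between groups was not tested. Smooth muscle genes, at 1273 to 4755 summed scaled RPKM in Tas1r3+/+ WD libraries and 1681 to 6233 in Tas1r3-/- WD libraries, were higher in Tas1r3-/- mice in 8 of 8 genes, none with an unadjusted p under 0.05 and Actg2 with the largest difference (0.53). Endothelial and lymphatic genes, at 33 to 121 against 32.2 to 86.8, were lower in 4 of 8 tested, with Flt4 at 0.19 and Stab1, which macrophages also express, at -0.76 on the log2 scale. Enterocyte genes were lower in 10 of 10, at 7410 to 25937 against 2601 to 15631, with Fabp2 at -2.29 (adjusted p = 1 by limma). Adipocyte genes were higher in 5 of 7, at 28.9 to 147 against 35.6 to 247, with Cfd at 1.89 and Lep at -0.43 on the log2 scale. The genes most like the mean of the 10, over 13 group-centred libraries, were Agtpbp1 (r = 0.96), Tcf21 (0.95), Psap (0.95), Bnip2, Scarb2, Vsir and Trip6 (0.94 each), and Fgfr2, Gm13889 and Smarcd3 (0.93 each).

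Of the ratios between the C1q chains, C1qa to C1qb separated the genotypes on both diets. On the WD it was 0.912, 0.740, 0.796 and 0.630 in Tas1r3+/+ WD libraries and 0.955, 1.03 and 0.996 in Tas1r3-/- WD libraries. On the ND it was 0.852 to 1.04 in Tas1r3+/+ and 1.08 and 1.15 in Tas1r3-/- libraries. On either diet the Tas1r3-/- values lay above the Tas1r3+/+ values, a description noticed in the data and not tested. C1qc to C1qb (0.592 to 0.775 against 0.724 to 0.898) and C1qa to C1qc (1.06 to 1.20 against 1.11 to 1.42) overlapped on the WD. On the ND, C1qc to C1qb separated as well (0.629 to 0.739 against 0.784 and 0.81). Among single genes, 1.55% on the WD and 8.34% on the ND lay wholly higher in Tas1r3-/- mice, and no such share was computed for ratios.

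Other genes of the macrophage programme were counted from lists, between genotypes on the WD. In that comparison 52.3% of all genes were lower in Tas1r3-/- mice, and 2.56% reached an unadjusted p under 0.05. Of 15 tested receptor, adhesion and scavenging genes, 12 had the lower level in WD-fed Tas1r3-/- mice (median -0.43), none passed the threshold and 2 had an unadjusted p under 0.05 (Fcgr3 and Clec7a). Clec7a, which encodes the fungal receptor dectin-1, had the largest fall at -0.87, and Cd36 the largest rise at 0.24, both with an adjusted p of 1 by limma. Cx3cr1, the fractalkine receptor of resident macrophages, was 4.11 ± 1.43 scaled RPKM in Tas1r3+/+ WD libraries (SD, n = 4) and 2.84 ± 1.73 in Tas1r3-/- WD libraries (n = 3). Timd4, Trem2, Msr1 and Siglec1, further macrophage receptors, were below the filter, at means of 0.27 to 0.653 scaled RPKM, and Marco was not in the table.

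Of 20 tested regulators and effectors, 16 were lower in Tas1r3-/- mice on the WD (median -0.26). Nos2, inducible nitric oxide synthase, which gut epithelium also expresses, went from 35.3 ± 13.6 to 6.14 ± 2.71 scaled RPKM (log2 change -2.43, adjusted p = 0.0319 by limma), with an adjusted p under 0.05 (0.0263% of all genes) but not under 0.01, and it was under 0.05 in 17 of 29 settings run (0.0045 to 0.601). The lowest of these, 0.0045, came with all 16 columns, which counts the weighted means as libraries. Without transcripts that hold values of over 6 digits, Nos2 had no value. Lpl, lipoprotein lipase, had the largest rise at 0.26. Spi1 changed by -0.40 with an adjusted p of 1. Among the 8 tested CSF1R ligands and recruitment genes, the CSF1R ligands Csf1 and Il34 had changes of 0.14 and -0.26. Ccl2, a monocyte attractant, had the largest fall at -1.68 (unadjusted p = 0.00251, adjusted p = 1 by limma). In Tas1r3+/+ WD libraries, 2 values of Ccl2 have over 6 digits. Of 12 complement partners of C1q, 11 were lower, by a median of 0.16 in size, with no unadjusted p under 0.05, C3 at -0.62 and C1qbp at 0.46.

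All 8 tested genes on the macrophage cytokine list, which includes the receptor gene Il10ra, were lower in Tas1r3-/- mice fed the WD (median -1.01). Of these, 5 had an unadjusted p under 0.05 (0.945% of all genes with the lower level) and 6 were without overlap (1.26%). Il18, which gut epithelium also makes, had the largest fall, from 24.1 ± 9.43 to 2.44 ± 0.412 scaled RPKM (-2.98, adjusted p = 0.016 by limma). The adjusted p of Il18 was under 0.05 in 21 of 30 settings run (0.00121 to 1), and it was 1 without transcripts that hold values of over 6 digits. Of the 8 genes, Tnf, Il1b, Il1a, Il6 and Il18 hold values of over 6 digits in WD libraries. Il10 was not in the table.

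Tnf and Il1b were further apart between genotypes than the macrophage genes. Tnf was 3.94, 1.96, 3.16 and 4.22 scaled RPKM in Tas1r3+/+ WD libraries and 0.196, 0.213 and 0.314 in Tas1r3-/- WD libraries. Il1b was 2.65, 2.71, 2.88 and 4.19 in Tas1r3+/+ WD libraries and 0.216, 1.09 and 0.540 in Tas1r3-/- WD libraries. Neither gene's groups overlapped. The log2 change was -2.32 (-3.02 to -1.63, adjusted p = 0.0319 by limma) for Tnf and -1.75 (-2.41 to -1.09, adjusted p = 0.189) for Il1b, and Tnf thus passed an adjusted p of 0.05 but not 0.01. Its adjusted p was under 0.05 in 17 of 28 settings run (0.00135 to 0.483). The lowest, 0.00135, came with all 16 columns, which counts the weighted means as libraries. Each setting without a ND library was among those under 0.05, and ND libraries enter this comparison only through the shared spread and scaling. The adjusted p of Tnf was 0.058 without scaling, 0.167 with these groups alone, 0.483 in males, 0.0957 with a replicate block and 0.48 from the largest transcript. It was 0.164 without Tas1r3+/+ WD male 1, 0.146 without female 1 and 0.0688 without female 2 of that group, and 0.264, 0.199 and 0.0878 without Tas1r3-/- WD male 1, male 2 and the averaged female. Exact permutation gave 0.029 for both, the smallest possible.

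The values of both cytokines carry marks that some other genes also hold. Ordinary values have at most 6 significant digits, and 7 values of Tnf, 6 of them in Tas1r3+/+ WD libraries, and 1 of Il1b (Tas1r3-/- WD male 1) had more. That value of Il1b corresponds to 2.69 reads, and the female 1 column of the same group to 0.421 reads. Without the transcripts that hold such values, no level of Tnf or Il1b remains. In all, the libraries hold 169 such values in 70 genes. Among genes named here, these also include Il18, Il1a, Il6, Ccl2, Nos2, Cd36, Lyz1, Lyz2, Defa17, Defa21, Defa24, Defa26 and Tas1r3. The implied reads behind Tnf were 2.94 to 66 per library.

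On the WD, the macrophage level of the libraries overlapped between genotypes where Tnf and Il1b did not. The mean log2 level of the 10 genes was 4.16, 3.51, 3.86 and 3.24 in Tas1r3+/+ WD libraries and 3.79, 3.31 and 2.94 in Tas1r3-/- WD libraries. Tas1r3+/+ WD female 2, with 3.24, had Tnf at 4.22, whereas Tas1r3-/- WD male 1, with 3.79, had Tnf at 0.196. By this mean they are the lowest Tas1r3+/+ WD and the highest Tas1r3-/- WD library. The Tnf level of each rests on values with more digits than ordinary ones. In Tas1r3-/- WD male 1 it corresponds to 2.94 implied reads and lies under the 0.5 added before the log. Set against the mean of the 10 genes, Tnf was lower in Tas1r3-/- than in Tas1r3+/+ mice by -1.98 and Il1b by -1.41 on the log2 scale, in each case with no overlap between the groups. Without Tas1r3-/- WD male 1 the difference was -0.91 for Il1b, and with any single library left out it ran from -1.72 to -0.91 for Il1b and from -2.27 to -1.72 for Tnf. With Csf1r alone in the denominator the differences were -2.08 and -1.51, with the 3 C1q chains -1.84 and -1.27, and with 7 pan-leukocyte genes -2.12 and -1.54. These ratios are descriptions, and the mean of the 10 genes includes Lyz2, whose value is uncertain. The part of macrophage content in the shifts of Tnf and Il1b was not tested.

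In Tas1r3+/+ mice, Tnf relative to the 10 genes was -3.03 ± 0.47 on the ND and -1.80 ± 0.54 on the WD (mean and SD of log2 differences, n = 4 each) without overlap, and Il1b was -2.66 ± 0.28 and -1.86 ± 0.63 with overlap. Tnf was 0.464, 0.373, 1.01 and 1.18 scaled RPKM in Tas1r3+/+ ND libraries and 0.472 and 1.04 in Tas1r3-/- ND libraries. Tnf itself had, from ND to WD in Tas1r3+/+ mice, a log2 change of 1.61 (0.97 to 2.25, adjusted p = 0.0684 by limma) and Il1b of 1.19 (0.57 to 1.80, adjusted p = 0.105). Group-centred r with the mean of the 10 genes was 0.14 for Tnf and -0.24 for Il1b.

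**Figure D4:**
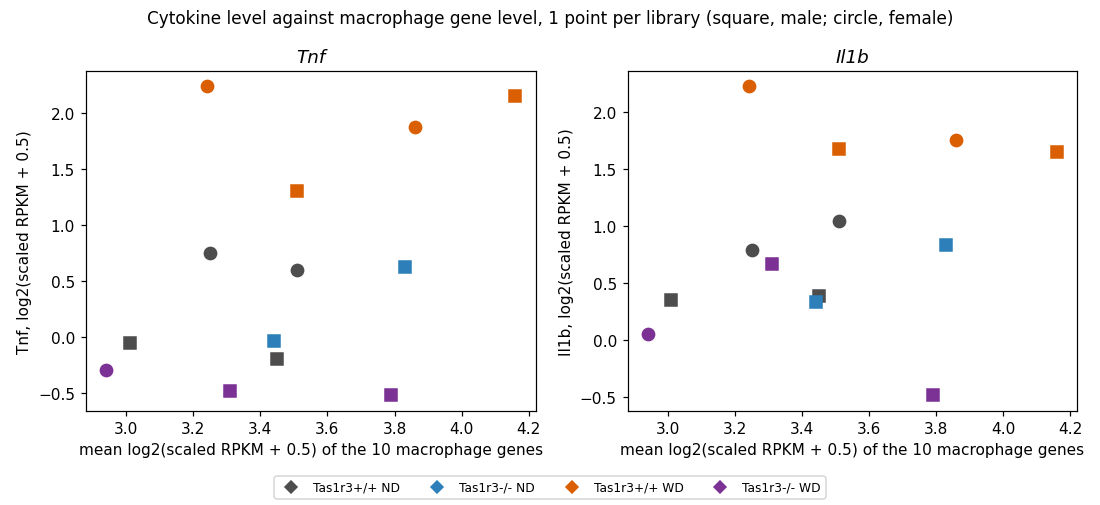
Log2 level of Tnf (left) and Il1b (right) against the mean log2 level of the 10 macrophage genes, 1 point per library, coloured by group (squares, males; circles, females). Tas1r3+/+ WD libraries span 3.24 to 4.16 on the horizontal axis and Tas1r3-/- WD libraries 2.94 to 3.79, and every Tas1r3+/+ WD point lies above every Tas1r3-/- WD point.

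Markers of other leukocytes were set beside these values on the WD. The 7 pan-leukocyte genes were all lower in Tas1r3-/- mice (median -0.15), the 10 T cell genes were all lower (median -0.32) and 8 of 9 B cell and plasma cell genes were higher (median 0.09), with no unadjusted p under 0.05 in these lists. Among genes with a mean of at least 1, the ends of their changes were -0.35 for Cd53, -0.56 for Cd3d, and 0.44 for Fcer2a and -0.37 for Sdc1. Summed pan-leukocyte levels were 112 to 216 scaled RPKM in Tas1r3+/+ WD libraries and 99.6 to 166 in Tas1r3-/- WD libraries. Of 12 monocyte and neutrophil genes, 4 (Chil3, S100a8, Ly6g and Cxcr2) were not in the table, and 6 were tested, of which 4 were lower and Csf3r, the receptor for G-CSF, had an unadjusted p under 0.05 (-0.82), with Mpo at -0.53 and Plac8 at 0.07. Of 10 eosinophil and mast cell genes, 5 (Ccr3, Epx, Il5ra, Cpa3 and Ms4a2) were not in the table. Of the 5 tested, 3 were higher (median 0.06), with Kit at 0.09 and Prg2 at -0.03. Dendritic cell genes, which share Itgax with macrophages, were lower in 6 of 7 (median -0.21, Itgae at -0.30), none with an unadjusted p under 0.05.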

How the data were processed

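The authors sequenced terminal ileum RNA on the Ion Proton platform, mapped reads to GRCm38 (mm10) with STAR in Partek Flow and quantified Ensembl transcripts. Per the file headers, each deposited column is 1 sample, and its values are RPKM by transcript. RPKM was summed per gene (59258 transcripts, 23299 genes), and libraries were scaled by trimmed means of log ratios (trims of 30% and 5%). One model over 13 libraries in 4 groups was fitted with limma 3.58.1 (R 4.3.3, mean-variance trend) to log2(scaled RPKM + 0.5), after tests on simulated data, and its fold changes understate those of low genes. Single genes were also compared by exact two-sided permutation of log2 levels. Positions came from GENCODE M21, which matched 98.2% of transcripts. The members and lists were chosen with earlier results of these data known. Genes named beyond the 10 were Tas1r3, Tnf, Il1b, Lyz1, each list's largest rise and fall between genotypes on the WD at a mean of at least 1, and the 10 genes of a mean of at least 5 most like the members. Other genes were picked with their values in view. The replicates are the labels' own, and p-values measure the spread between these libraries. Implied reads cover counting error only.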

Additional observations from a re-analysis of the deposited data

Results flagged for a closer look

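Il1b in Tas1r3+/+ WD female 2 stood at 4.19 scaled RPKM, apart from the other 3 libraries of its group (2.65 to 2.88), by more than Dixon's criterion for 4 samples allows. Chance alone sets about 1 in 20 groups apart in this way.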

How the results depend on the processing

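None of the 10 genes passed the threshold in any comparison under any setting run. At an unadjusted p under 0.05, 3 did between genotypes on the WD, 2 between diets in Tas1r3+/+ mice, 1 between diets in Tas1r3-/- mice and 1 in the interaction. Signs turned as follows, on the log2 scale. Between genotypes on the WD, males alone gave -0.04 for Lyz2 and 0.07 for Mrc1. On the ND, Adgre1 was -0.09 without scaling, -0.01 with all 16 columns, -0.11 with sex as a term and -0.10 with a replicate block. Cd68 was -0.03 without scaling and -0.35 from the largest transcript. Tnf was -0.07, -0.01 and -0.92 without scaling, with 16 columns and from the largest transcript, and Il1b 0.21 in males, 0.10 with sex and 0.11 with the replicate block. Between diets in Tas1r3+/+ mice, no scaling gave -0.18 for Csf1r, -0.24 for C1qb, -0.25 for C1qc and -0.04 for Cd163, males gave 0.23 for C1qa, and the sum of Lyz1 and Lyz2 gave -0.68. In Tas1r3-/- mice, Mrc1 was -0.15 without scaling and -0.01 with 16 columns, Adgre1 0.12 in males, and the largest transcript gave 0.37 for Cd68 and 0.54 for Tnf. The interaction of Lyz2 was 0.04 with 16 columns, 0.11 with sex, 0.11 with the replicate block and 1.12 for the sum with Lyz1. The cause was not tested.

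Tnf relative to the 10 genes, between genotypes on the WD, was -2.90 and -1.45 with pseudocounts of 0.1 and 1 and -1.24 from the largest transcript. That transcript gave -1.29 on the ND, 0.82 between diets in Tas1r3-/- mice and 0.04 for the interaction. A pseudocount of 0.1 gave -0.95 between diets in Tas1r3-/- mice and -2.59 for the interaction, and a pseudocount of 1 gave -1.16 for the interaction.

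With each library left out in turn, signs turned between genotypes on the WD for Csf1r (-0.49 to 0.07), Cd163 (-0.44 to 0.16) and Mrc1 (-0.55 to 0.12). On the ND they turned for Adgre1 (-0.35 to 0.39), Cd68 (-0.03 to 0.27), Itgax (-0.18 to 0.74), Cd163 (-0.09 to 0.83), Tnf (-0.31 to 0.35) and Il1b (-0.31 to 0.18). Between diets they turned for Csf1r (-0.02 to 0.46) and C1qa (-0.25 to 0.11) in Tas1r3+/+ mice, and for Adgre1 (-0.68 to 0.14), Itgax (-0.72 to 0.20), Cd163 (-0.71 to 0.20) and Mrc1 (-0.12 to 0.55) in Tas1r3-/- mice, where the median of the 10 ran from -0.65 to 0.03. The interaction of Lyz2 ran from -0.26 to 0.13. Where 1 library was left in a group, it was assumed to vary like the other groups.

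Same-numbered libraries did not deviate together in every pair of groups (r from -0.07 to 0.47), so the numbers were not taken as pairs. The highest r, 0.47, was between males of Tas1r3+/+ WD and Tas1r3-/- WD. It was 0.43 between females of Tas1r3+/+ ND and Tas1r3+/+ WD. With the replicate block, Cd68 alone had an unadjusted p under 0.05 between genotypes on the WD (-0.81). Without transcripts that hold values of over 6 digits, Lyz2, Tnf and Il1b had no value. Among the 10 genes, depth limits Cd163 and Adgre1 most, at as few as 10 and 13 reads, and Tnf and Il1b had as few as 2.94 and 0.421.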
